A study of Mus musculus with 9 samples.

Results

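Vesicle coat and membrane trafficking genes were taken from a table of intron reads in mouse embryonic stem cells by the first letters of the gene symbol. The symbols were those of the COPII and COPI coats, the Sec22 and Sec61 to Sec63 proteins, the AP-1 to AP-3 adaptors, the Arf regulators Arfgap and Arfgef, the Rab family, the TRAPP and exocyst tethers, the Vps proteins and the sorting nexins. They gave 372 introns of 133 genes, out of 22228 introns of 7016 genes in all. The prefixes also took Vps72, a chromatin-complex subunit, and Exoc3l, a gene named only for its likeness to an exocyst subunit.

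Polyadenylated RNA came from v6.5 mouse embryonic stem cells grown on gelatin in serum with ESGRO, a leukaemia inhibitory factor product. KH-CB19 inhibits Clk kinases, which phosphorylate splicing factors. It was dissolved in dimethyl sulfoxide (DMSO) and given at a final concentration that the labels state as 10 mM (a unit not checked here, which may stand for micromolar), and control cells received the same volume of DMSO alone. Each of the 4 groups (DMSO or KH-CB19, harvested at 0 h or 2 h) held 2 libraries that the labels call independent biological replicates, with RNA integrity numbers from 8.8 to 9.4. An untreated library was not analysed here. The authors gave 1 mean per group, so every value below is an authors' mean over 2 libraries with no spread between them, and the only p-values are the authors' own. Over the 286 trafficking introns with a value in both 0 h groups, the unscaled observed reads summed to 11949 in DMSO and 9283 in KH-CB19, a ratio of 0.777, against 0.802 over all introns with both values. Of 12 embryonic stem cell marker genes, 11 had introns in the table, with 12256.5 observed reads in DMSO and 8641.5 in KH-CB19 at 0 h. Of 12 fibroblast markers only Fn1 was listed (3265.5 and 2562 reads), and of 12 germ layer and trophoblast markers none was. Only introns were counted, so a marker gene without introns could not be listed.

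Membrane traffic moves proteins between organelles in vesicles. The COPII coat buds vesicles from the endoplasmic reticulum towards the Golgi apparatus, the COPI coat returns material from the Golgi, and AP adaptors load cargo into vesicles at the Golgi, endosomes and plasma membrane. Rab GTPases and tethers such as TRAPP and the exocyst direct a vesicle to its target membrane, while Vps proteins and sorting nexins sort cargo in endosomes and lysosomes. A detained intron is one left unspliced in polyadenylated RNA that is kept in the nucleus.

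The authors classed 57 of the 372 trafficking introns as detained (15.3%), against 15.5% of all introns in the table. These 57 introns lay in 41 of the 133 genes (30.8%, against 34.6% of all genes). Only detained introns carried a value at 2 h, so the inhibitor comparison covers these 57 and not the other 315 trafficking introns. At 2 h 5 of the 57 passed the authors' adjusted p threshold of 0.05. Intron 3 of Sec24b, a cargo-binding subunit of the COPII coat, rose. Introns of Trappc10 (a TRAPP tether subunit), Copa (the alpha subunit of the COPI coat), Sec61a2 (an alpha subunit of the translocation channel) and Snx8 (an endosomal sorting nexin) fell. Because the material was bulk RNA, a change in the reads per cell and a change in the number of cells that carry the transcript cannot be told apart.

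The exon letters that flank these 5 introns are shown first, with those of the other detained introns of the same genes, because 1 intron of each such pair passed the test and the other did not. Each line is the spliced junction of the mouse GENCODE M21 transcript, 5′ to 3′ on the gene's strand, with 15 bases on each side of the intron, the last 3 bases of the upstream exon and the first base of the downstream exon in capitals. Intron numbers and coordinates are those of the authors' table, on mm9.

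Sec24b intron 3, chr3:129723561-129736748, minus strand: agatgcagactaAAGGcatgcagtatggtg

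Sec24b intron 23, chr3:129687189-129690604, minus strand: ataccacagaaaATGAcacatcttccagag

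Trappc10 intron 21, chr10:77651696-77656103, minus strand: aacttatgtatgAAGTtgtggacaacagca

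Copa intron 6, chr1:174022486-174027804, plus strand: tttgggatatttCTGGtctaaggaagaaaa

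Copa intron 15, chr1:174040057-174040619, plus strand: cgtccagcagaaGCGAactctggcatcagt

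Sec61a2 intron 8, chr2:5798048-5798733, minus strand: gtgaagtatgcaGTAGtacggagtttgaag

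Sec61a2 intron 11, chr2:5795465-5797409, minus strand: ctaggacagtggGCCGatgtcagtggggga

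Snx8 intron 7, chr5:140822300-140828086, minus strand: agagctgcacagCAGGgcaagaaggaggag

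The usual last bases of an exon before a 5′ splice site are AG. Of the 5 introns that passed the test, 3 followed an exon ending in AG (Sec24b 3, Trappc10 21 and Snx8 7), as did 29 of the 55 matched detained trafficking introns (52.7%). Over all matched detained introns 53.9% did, and over every matched intron, detained or not, 54.9%. An AG end joined to an exon that starts with G was found for Sec24b intron 3 and Snx8 intron 7, for 23.6% of the matched detained trafficking introns and for 24.5% of all matched detained introns. The search read the gene's strand only, and the AG-then-G set is part of the AG set. These shares were near those of the whole table.

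Of the introns that passed, 4 lay between coding exons. Intron 3 of Sec24b separated exons 3 and 4 of 24 and was, with 13188 bp, the longest of the 57 detained trafficking introns. Intron 21 of Trappc10 (4408 bp) separated exons 21 and 22 of 23, intron 6 of Copa (5319 bp) exons 6 and 7 of 33, and intron 7 of Snx8 (5787 bp) exons 6 and 7 of 10. The 686 bp intron 8 of Sec61a2 matched only a non-coding transcript of that gene. On the strand opposite to Copa intron 6 the annotation holds an antisense gene, Gm37756. The sources used here do not say how the counting used strand, so reads of the 2 genes in that intron cannot be told apart. In all, 4 of the matched detained trafficking introns overlap another annotated gene. The others are Rab7 intron 7 (antisense gene Gm5577), Ap1ar intron 4 (Tifa, opposite strand) and Ap1g1 intron 13 (small RNA genes on both strands). The same limit holds for the genes on the opposite strand. Snord71, which overlaps Ap1g1 intron 13, lies on the same strand as Ap1g1, so strand could not set its reads apart.

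The inhibitor comparison at 2 h asked which detained introns gained or lost reads after Clk inhibition, on the authors' scale of normalised reads per intron. Of the 57 trafficking introns, 1 rose (1.75%, against 5.47% of all 3454 detained introns) and 4 fell (7.02%, against 4.17%). In either direction the share was 8.77%, against 9.64% over all detained introns in the authors' deposited table. Over the 57, the median log2 ratio (KH-CB19 to DMSO) was −0.20 (quartiles −0.50 and 0.10), and over all detained introns it was 0.00 (quartiles −0.35 and 0.34). Ratios below 0 were found for 38 of the 57 trafficking introns (66.7%) and for 50.1% of all detained introns. A difference of more than 2-fold was seen in 8 of the 57 (14%), against 9.03% overall. Summed over the 57, the normalised reads were 3839 in DMSO and 3621 in KH-CB19, and no test of the list was made. The sum includes Sec24b intron 3, which alone went from 66.7 to 302.

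**Figure D1:**
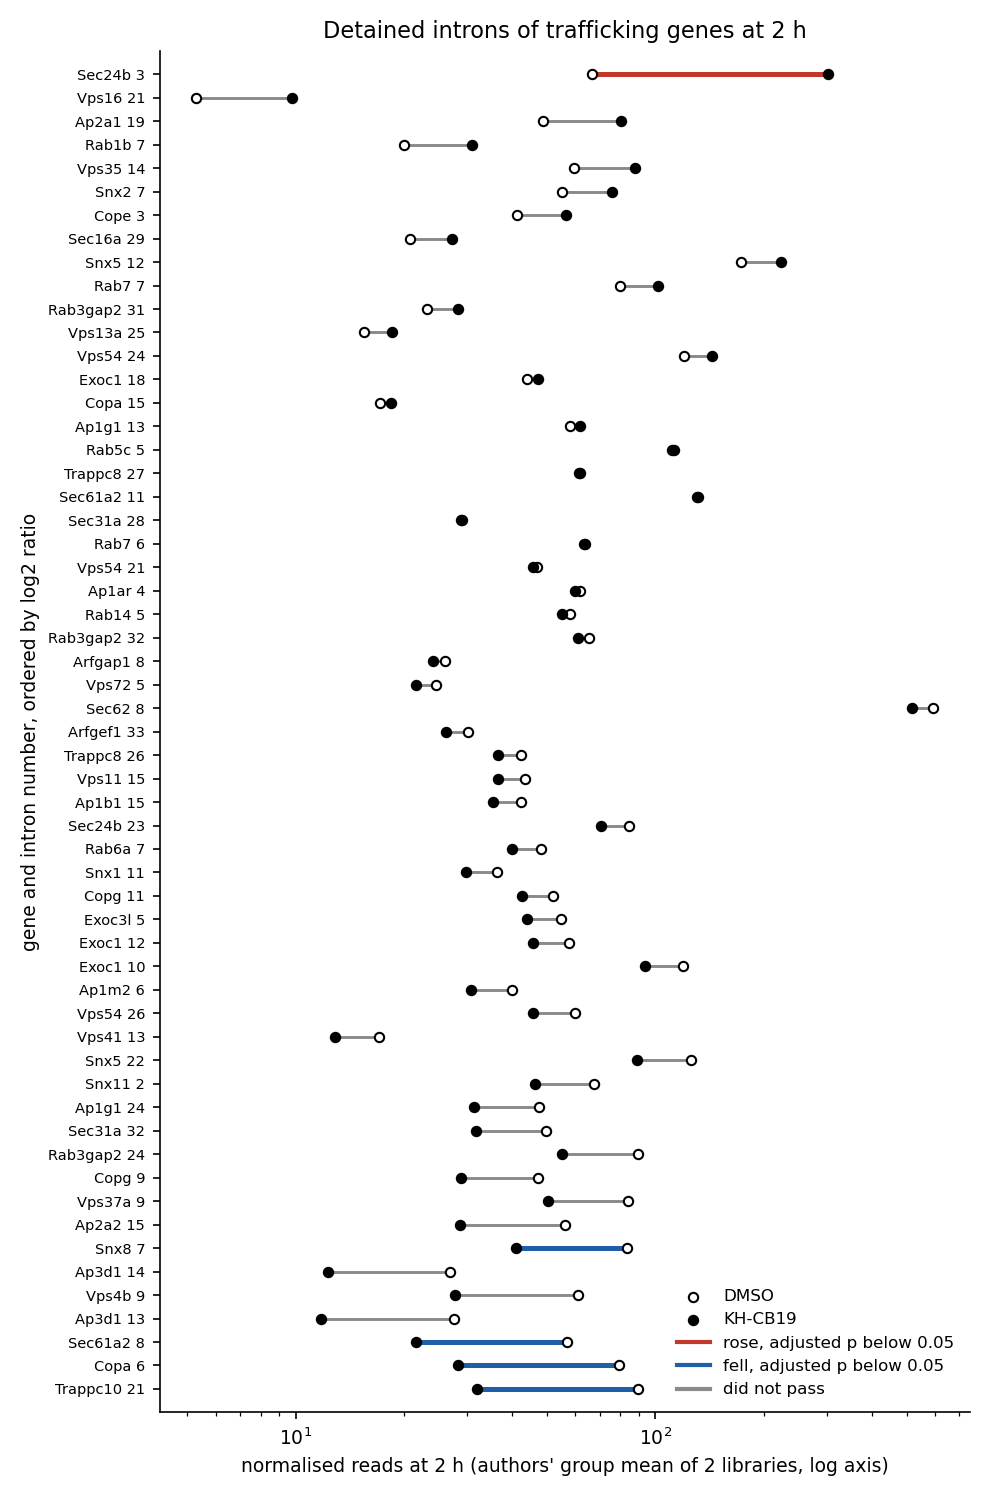
Authors' mean normalised reads at 2 h (x axis, log scale) for the 57 detained trafficking introns. Each row is an intron, in order of log2 ratio, with an open circle for DMSO and a filled circle for KH-CB19. Line colours mark introns that rose, fell or did not pass adjusted p 0.05. In the top row, Sec24b intron 3, the KH-CB19 circle lies far to the right of the DMSO circle. For the introns of Trappc10, Copa, Sec61a2 and Snx8 that passed, it lies to the left.

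Among the genes of the COPII coat, Sec24b intron 3 held 66.7 normalised reads in DMSO and 302 in KH-CB19 at 2 h, or 5.06 and 22.9 reads per kb of intron. The authors' deposited table gave it a log2 ratio of 2.18 with an adjusted p of 7.51e-17, 4.52-fold higher. In GENCODE M21, exons of other coding transcripts of Sec24b cover 0.955% of this intron. Reads of such exons and of the unspliced intron cannot be told apart here. The KH-CB19 mean was the higher one, and no other trafficking intron rose past the threshold. Sec24b has another detained intron, number 23, which held 84.7 reads in DMSO and 70.8 in KH-CB19 (log2 ratio −0.26 at an adjusted p of 0.709 by the authors' deposited table). The 2 detained introns of this one gene thus stood 2.43 log2 units apart, a difference that was not tested. Detained introns of the other COPII genes did not pass. Only 3 of the 8 COPII genes had a detained intron, so the rest were not compared at 2 h. Sec31a, an outer coat subunit, had 49.8 and 31.7 reads in intron 32 (log2 ratio −0.65 at an adjusted p of 0.489 by the authors' deposited table). Its intron 28 stood at a log2 ratio of −0.01. Sec16a, a scaffold of the sites where COPII vesicles form, had 20.8 and 27.2 reads in intron 29 (log2 ratio 0.39 at an adjusted p of 0.742 by the authors' deposited table).

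Among the genes of the COPI coat, Copa intron 6 held 79.1 normalised reads in DMSO and 28.2 in KH-CB19 at 2 h (14.9 and 5.31 per kb). In the authors' deposited table it fell with a log2 ratio of −1.49 and an adjusted p of 0.000694, 2.80-fold lower. Intron 15 of the same gene, the other detained one, held 17.2 and 18.4 reads (log2 ratio 0.10 at an adjusted p of 1 by the authors' deposited table), so again 1 of 2 detained introns of a gene passed and the other stood near no difference. Intron 15 had few reads, and the lowest mean over both groups of any trafficking intron that passed was 39.1. Copg, the gamma subunit, had 47.3 and 28.7 reads in intron 9 (log2 ratio −0.72 at an adjusted p of 0.277 by the authors' deposited table). Its intron 11 had 51.9 and 42.5 reads, and Cope, the epsilon subunit, had 41.2 and 56.5 in intron 3. None of these 3 introns passed.

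The Sec61 channel carries new proteins across the membrane of the endoplasmic reticulum, and Sec62 assists it. Sec61a2 intron 8 held 56.7 normalised reads in DMSO and 21.6 in KH-CB19 at 2 h (82.6 and 31.5 per kb). By the authors' deposited table it fell, with an adjusted p of 0.00668 and a log2 ratio of −1.39, 2.62-fold lower. Intron 11 of Sec61a2 had 131.0 and 131.7 reads (log2 ratio 0.01 at an adjusted p of 1 by the authors' deposited table). Here the intron that did not pass was the one with more reads. Sec62 intron 8 held the most reads of any trafficking intron, 591 in DMSO and 517 in KH-CB19 (log2 ratio −0.19 at an adjusted p of 0.622 by the authors' deposited table). In GENCODE M21 it matched only a non-coding transcript of Sec62. It lies wholly within an exon of a coding transcript, so its reads can also come from that exon.

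In the TRAPP and exocyst tethers, Trappc10 intron 21 held 89.7 normalised reads in DMSO and 31.8 in KH-CB19 at 2 h (20.3 and 7.23 per kb). Its fall was the largest among the 57 introns, with a log2 ratio of −1.49 and an adjusted p of 0.000266 in the authors' deposited table, 2.82-fold lower. Trappc10 had no other detained intron. Trappc8, a subunit of another form of the TRAPP complex, had 42.3 and 36.4 reads in intron 26 and 61.2 and 61.7 in intron 27, and the authors' deposited table put their log2 ratios at −0.22 and 0.01. Exoc1, an exocyst subunit, had 3 detained introns with 119.6 and 93.6 reads (intron 10), 57.5 and 45.7 (intron 12) and 44.0 and 47.2 (intron 18). Their adjusted p-values in the authors' deposited table were 0.488, 0.670 and 0.937. Exoc3l intron 5 held 54.7 and 44.1 reads.

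Of the sorting nexin genes, Snx8 intron 7 held 83.7 normalised reads in DMSO and 41.1 in KH-CB19 at 2 h (14.5 and 7.10 per kb). This was a log2 ratio of −1.03 and an adjusted p of 0.0181 in the authors' deposited table, 2.04-fold lower, and of the 5 introns that passed it was the nearest to the threshold. Snx5, which acts with retromer in returning cargo from endosomes, had 2 detained introns that pointed in opposite directions without passing. Its intron 12 held 173 and 224 reads (log2 ratio 0.38 at an adjusted p of 0.337 by the authors' deposited table). Intron 22 of Snx5 held 126 and 88.9 reads (log2 ratio −0.50 at an adjusted p of 0.260 by the authors' deposited table). It matched only a non-coding transcript of Snx5, whereas intron 12 lay between coding exons. Snx11 intron 2, which lies in the 5′ UTR, held 67.5 and 46.2 reads and did not pass.

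None of the 11 detained introns in 9 Vps genes passed. The nearest was intron 9 of Vps4b, the ATPase that takes ESCRT filaments apart, with 60.9 reads in DMSO and 27.7 in KH-CB19 (log2 ratio −1.14 at an adjusted p of 0.0605 by the authors' deposited table). Vps37a, an ESCRT-I subunit, had 84.0 and 50.3 reads in intron 9 (log2 ratio −0.74 at an adjusted p of 0.115 by the authors' deposited table). Vps35, the core of retromer, had 59.4 and 87.9 reads in intron 14 (log2 ratio 0.57 at an adjusted p of 0.250 by the authors' deposited table). Vps54, a tether subunit at the Golgi, had 3 detained introns, whose log2 ratios stood at −0.03, 0.26 and −0.39 in the authors' deposited table.

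The 9 detained introns of 7 AP genes had a median log2 ratio of −0.38 at 2 h, and 7 of the 9 were below 0, but none passed. Ap3d1, the delta subunit of AP-3, had 2 neighbouring introns of nearly equal length and level. Intron 13 held 27.6 reads in DMSO and 11.8 in KH-CB19, and intron 14 held 26.8 and 12.3. In the authors' deposited table their log2 ratios, −1.23 and −1.12, exceeded that of Snx8 in size, with adjusted p-values of 0.142 and 0.187 at these low means. The alpha subunits of AP-2, the adaptor of endocytosis, stood on opposite sides of 0. Ap2a2 intron 15 held 56.3 and 28.7 reads (log2 ratio −0.97 at an adjusted p of 0.0788 by the authors' deposited table), whereas Ap2a1 intron 19 held 48.7 and 80.1 (log2 ratio 0.72 at an adjusted p of 0.144 by the authors' deposited table). The difference between the 2 genes was not tested.

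Among the Rab GTPases, the switches that mark organelle membranes, 6 introns of 5 genes were detained and had a median log2 ratio of −0.00 at 2 h. Rab7, of late endosomes, had 79.8 and 101.7 reads in intron 7 and 63.9 and 63.2 in intron 6. Rab1b, which acts between the endoplasmic reticulum and Golgi, had 20.1 and 30.9 in intron 7, a 151 bp stretch that also lies wholly within an exon of another coding transcript. Rab6a, of the Golgi, had 48.1 and 40.02 in intron 7. Rab3gap2, a subunit of a Rab-regulating complex, had 89.3 and 55.1 reads in intron 24 (log2 ratio −0.70 at an adjusted p of 0.152 by the authors' deposited table). The log2 ratios of its introns 31 and 32 were 0.29 and −0.10 in the authors' deposited table. Arfgef1, which activates Arf GTPases, had 30.2 and 26.3 reads in intron 33, and Arfgap1, which switches Arf off, had 26 and 24.1 in intron 8. No intron of the Rab or Arf groups passed.

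**Figure D2:**
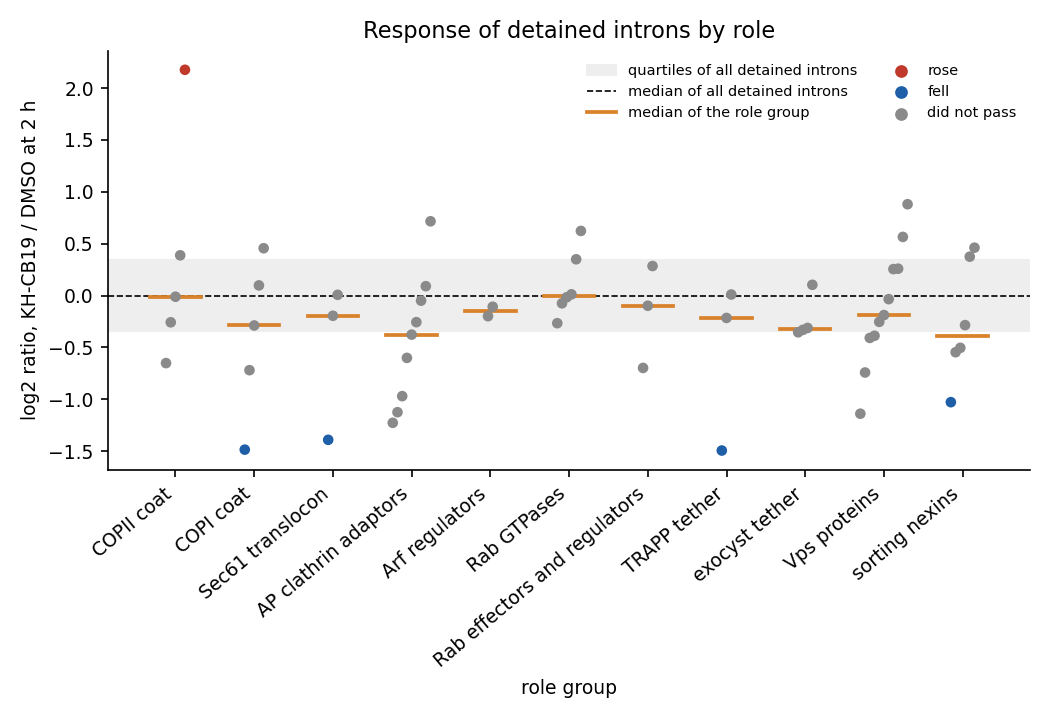
Log2 ratio of KH-CB19 to DMSO at 2 h (authors' deposited values) for each of the 57 detained trafficking introns, arranged by the role of the gene's product; each point is 1 intron. The medians of the role groups lie between −0.39 (sorting nexins) and −0.00 (Rab GTPases), and Sec24b intron 3 is the only point above 1.

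Read depth varied widely among the detained introns. The mean of the 2 groups at 2 h ranged from 7.53 to 554 normalised reads over the 57 introns, and 27 of them had at least 50. The 52 introns that did not pass spanned −1.23 to 0.88 on the log2 scale of the authors' deposited table, the highest for Vps16 intron 21 with 5.30 and 9.76 reads.

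Differences within genes could be read in 13 genes that had more than 1 detained intron, 29 introns in all. The range of log2 ratios within a gene was 2.43 in Sec24b, 1.58 in Copa and 1.398 in Sec61a2. In the other 10 genes it was between 0.10 (Ap3d1) and 0.98 (Rab3gap2). In the 3 genes with the widest range, 1 intron passed and the other stood at −0.26, 0.10 and 0.01. No other intron of the table overlapped any of the 57, so no read position was shared between rows. Differences between introns of a gene were not tested.

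**Figure D3:**
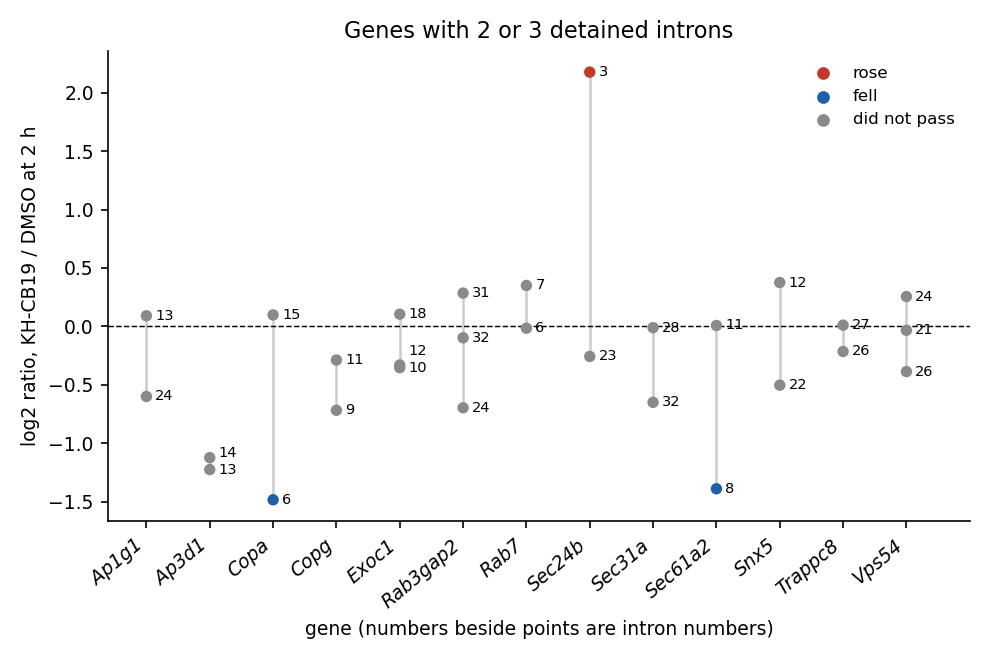
Log2 ratio of KH-CB19 to DMSO at 2 h (authors' deposited values) for the detained introns of the 13 trafficking genes that have more than 1; points are introns and each line joins the introns of 1 gene. Sec24b, Copa and Sec61a2 have the longest lines, each with 1 intron near 0.

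The 0 h groups asked a different question, whether an intron held more reads than the count that the authors expected for it. The sources used here do not say how that expectation was computed. In DMSO, 365 trafficking introns had a value, and 102 were above expectation at adjusted p below 0.05 (27.9%, against 28.2% of all introns in the authors' deposited table). Only 18 were below expectation (4.93%, against 10.9% overall). Every trafficking intron with a value had at least 10 observed reads, so introns with fewer were not measured. The median of observed reads was 22 and of expected reads 14, against 26 and 21 over all introns. All 57 detained trafficking introns were above expectation (100%), as were 98.7% of detained introns overall. The sources used here do not say whether this comparison entered the class. Their median excess was 3.86-fold, against 3.56-fold overall. Of the 308 other trafficking introns, 45 were above (14.6%, against 14.8%) and 18 below (5.84%, against 13%).

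Among introns with at least 50 observed or expected reads, Sec62 gave both the highest and the lowest ratio at 0 h that passed the threshold. Its intron 8 held 728.0 observed and 67.0 expected reads in DMSO, 10.9-fold, and 525.5 and 48.0 in KH-CB19. On the log2 scale of the authors' deposited table these ratios were 3.44 and 3.45. Its intron 6 held 10.0 observed and 123.5 expected reads in DMSO (log2 ratio −3.63 at an adjusted p of 7.1e-21 by the authors' deposited table). Intron 3 of Sec62 held 43.0 and 269.5 reads and intron 7 held 110.5 and 185.0, both with fewer observed than expected. Intron 8 lies wholly within an exon of a coding transcript of Sec62, so its observed reads can also come from that exon. Whether such reads entered the expected counts of the other Sec62 introns is not known, so no conclusion is drawn from their ratios.

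Large excesses were also found for introns of tethers and of a Rab regulator. Trappc10 intron 21, which fell at 2 h, held 90.0 observed and 11.0 expected reads in DMSO, 8.18-fold. Rab3gap2 intron 24 held 108.5 and 15.5, 7-fold, with an adjusted p of 4.42e-14 in the authors' deposited table. Vps54 intron 24 held 134.5 and 21.5, 6.26-fold, and Trappc8 intron 27 held 58.0 and 9.5, 6.11-fold. These introns were all classed as detained and all stayed above expectation in the KH-CB19 group at 0 h. Some introns outside the class had ratios as high on smaller counts, such as Exoc2 intron 13 with 42.5 observed and 4.5 expected reads (log2 ratio 3.24 at an adjusted p of 8.86e-08 by the authors' deposited table). That intron and those of the next sentence were singled out after their values were seen. Vps13c intron 56 held 22 and 1.5, and Vps13d intron 57 held 25 and 2.0.

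The 18 introns below expectation came from 12 genes. Translocation genes gave 5, all in Sec61a2 and Sec62, out of 18 introns with a value (27.8%). Rab GTPases gave 5 of 46 (10.9%, the same as over all introns), and exocyst genes 3 of 33 (9.09%). After Sec62, the lowest were Snx5 intron 8 (29.0 observed and 110.5 expected reads), Sec61a2 intron 4 (19.5 and 72.5), Rab7 intron 5 (20 and 67.5) and Exoc1 intron 8 (15.0 and 50). Each of these 4 genes also had a detained intron above expectation. Where an expectation shares out a gene's own reads among its introns, an excess in 1 intron sets others below. The sources used here do not say whether it does, so no conclusion is drawn from this.

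Other introns of the 5 genes with an intron that passed at 2 h were set beside it at 0 h. Sec24b intron 3 held 103.5 observed and 38.5 expected reads in DMSO. Introns 2 and 4 of Sec24b held 27.0 and 26.5 and 45.0 and 31.5, and were not classed as detained. Intron 23 of Sec24b, the other detained one, held 84.5 and 19. Sec61a2 intron 8 held 62.5 observed and 30 expected reads, while introns 2, 3 and 4 held 30, 26.5 and 19.5 observed against 50.5, 83.5 and 72.5 expected. On the other side of expectation, Sec61a2 intron 11, also detained, held 150.5 observed and 53.5 expected reads, and intron 12 held 28.5 and 21.5. Intron 10 of Sec61a2 held 10.5 and 16.5. Copa intron 6 held 78.0 and 18.5 reads, the detained intron 15 held 32.5 and 5.5, and intron 21 of Copa held 22.5 and 9.0. Snx8 intron 7 held 82.0 and 27.5, and intron 6 of Snx8 held 10.5 and 9.5. In Trappc10, intron 14 held 11.5 and 4.5.

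**Figure D4:**
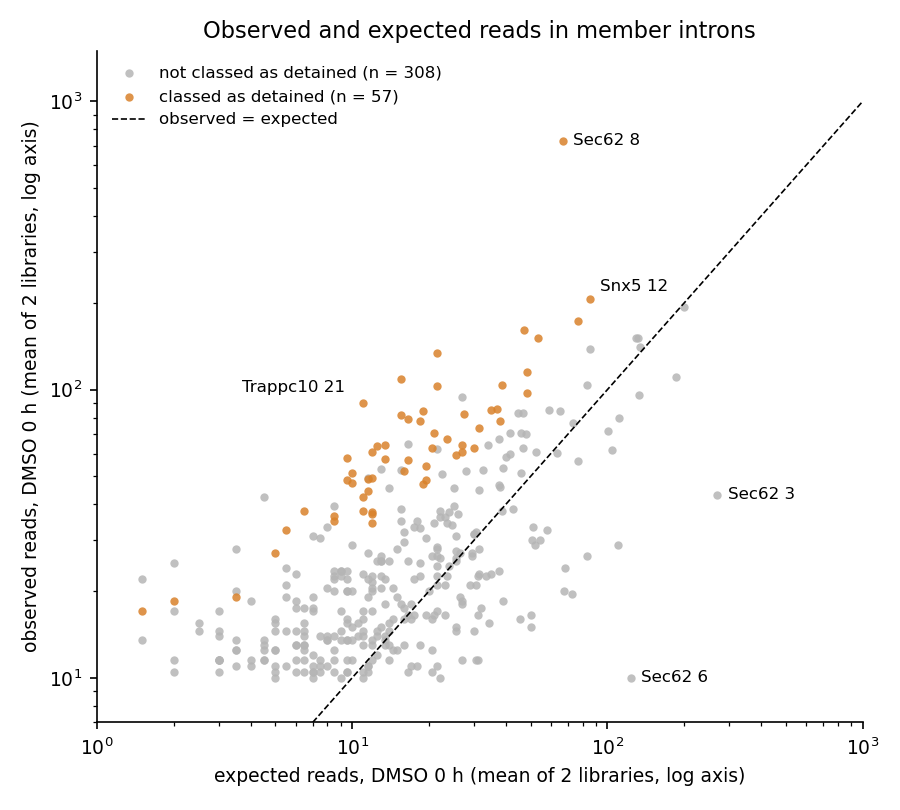
Observed against expected reads per intron in DMSO at 0 h (authors' means of 2 libraries, log axes) for the 365 trafficking introns with a value; orange points are detained introns and the dashed line marks equality. All 57 detained introns lie above the line, and Sec62 intron 6 lies farthest below it.

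In the KH-CB19 group at 0 h, 293 trafficking introns had a value, and 88 were above expectation (30%, against 27.6% of all introns in the authors' deposited table). Below expectation were 11 (3.75%, against 8.93%). Of the 57 detained introns 54 were above (94.7%, against 93.7% overall). Outside the class, 34 of 236 were above (14.4%, against 12.8%) and 11 below (4.66%, against 10.9%). The 3 detained introns not above were Sec61a2 intron 8, Vps41 intron 13 and Vps4b intron 9, with adjusted p-values of 0.0524, 0.0535 and 0.124 in the authors' deposited table.

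Cells of both 0 h groups were harvested at once, so their ratio shows how far 2 groups stood apart without 2 h of inhibition. The 0 h means were not scaled, and the log2 ratio of observed reads in KH-CB19 and DMSO (pseudocount of 1) was therefore centred on its median over all introns, −0.31. After centring, 286 trafficking introns had a median of −0.02 (quartiles −0.19 and 0.19), and all introns had quartiles of −0.19 and 0.20. The 57 detained trafficking introns ranged from −0.68 to 0.61 at 0 h. None of them was beyond 2-fold at 0 h (0.614% over all detained introns), and 8 were at 2 h (9.03% over all detained introns), so the 2 h values spread more widely in the whole table too. The centred 0 h values of the 5 introns that passed at 2 h were −0.18 for Sec24b intron 3, 0.08 for Trappc10 intron 21, −0.04 for Copa intron 6, −0.32 for Sec61a2 intron 8 and −0.07 for Snx8 intron 7. Each was smaller in size than its 2 h ratio, but these 5 were chosen for passing at 2 h, so no support is drawn from that. Vps4b intron 9 had the lowest 0 h value, −0.68, beside a 2 h value of −1.14 on the log2 scale in the authors' deposited table. The 0 h and 2 h values are on different scales, and their difference was not tested.

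**Figure D5:**
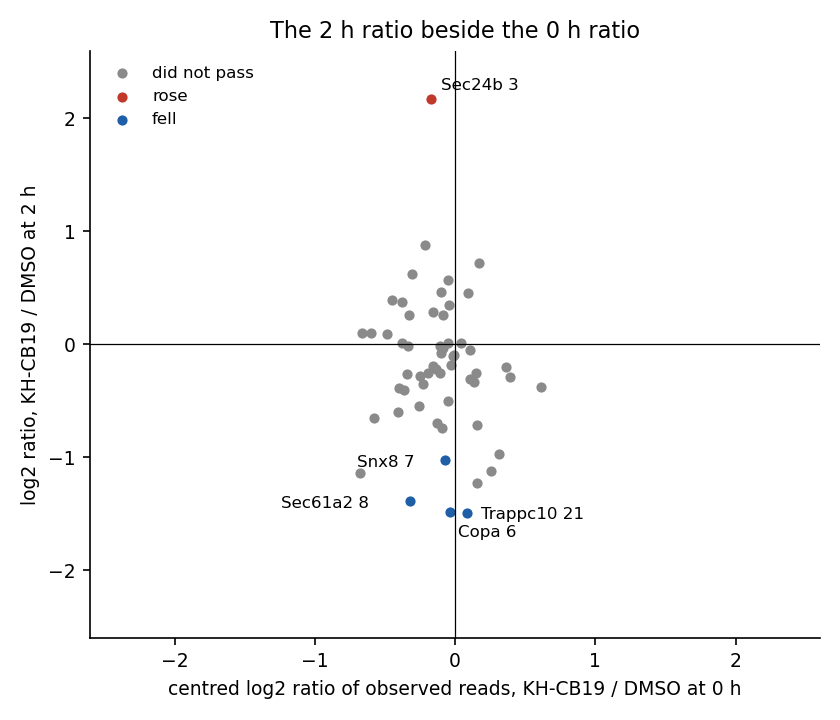
Log2 ratio of KH-CB19 to DMSO at 2 h (authors' deposited values, y axis) beside the centred log2 ratio of observed reads at 0 h (x axis) for the 57 detained trafficking introns; colours mark the 2 h call. The points spread over −0.68 to 0.61 on the x axis and over −1.49 to 2.18 on the y axis.

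Features that the choice of genes did not use were set beside those of all detained introns. The median length was 1754 bp, against 1562 bp over all detained introns, and the range ran from 104 bp (Vps16 intron 21) to 13188 bp (Sec24b intron 3). Reads per kb at 2 h in DMSO had a median of 25.6, against 39.2. Of the 57, 55 were matched to an annotated intron of equal length, of which 51 lay between coding exons (92.7%, against 94.3% of all matched detained introns), 1 in a 5′ UTR and 3 in non-coding transcripts only. The last intron of the transcript was detained in 4 cases (7.27%, against 5.96%) and the first in 2 (3.64%, against 2.53%). Introns in the later part of the transcript made up 69.1%, against 77.5% of all detained introns and 63.1% of all introns. Reads per kb, the share in the later part of the transcript and the share within retained-intron transcripts were thus all lower than over all detained introns, differences that were not tested. The retained-intron cases were intron 14 of Ap3d1, intron 8 of Arfgap1, intron 3 of Cope and intron 9 of Copg, which lay wholly within such an annotated transcript (7.27%, against 14.7%).

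Other genes of membrane traffic were taken from lists of SNAREs, endocytosis genes, golgins, Arf and Sar GTPases, ESCRT subunits, cargo receptors and further Rab regulators. Of the 232 listed genes 151 were in the table, with 62 detained introns in 50 genes. At 2 h 3 of the 62 rose, 1 fell and 58 did not pass (6.45% in either direction, against 9.64% over all detained introns), and their median log2 ratio was −0.14. Gosr1, a Golgi SNARE, had 16.5 and 43.1 reads in intron 8 and rose 2.62-fold (adjusted p 0.0216 in the authors' deposited table). Bcap29, a membrane protein of the endoplasmic reticulum, had 35.9 and 79.2 reads in intron 2 and rose 2.21-fold (adjusted p 0.0308 in the authors' deposited table). Ergic1, of the compartment between endoplasmic reticulum and Golgi, had 116 and 242 reads in intron 10 and rose 2.09-fold (adjusted p 0.000195 in the authors' deposited table). Sh3gl2, an endophilin of endocytosis, had 39.8 and 10.7 reads in intron 5 and fell, 3.71-fold lower (adjusted p 0.00333 in the authors' deposited table).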

How the data were processed

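Members and gene lists were chosen with earlier results of these data known, so no count over them is independent support. One table of introns on mm9 was used, with 1 mean by the authors for each group of 2 libraries. Per the submitters' processing notes, reads were handled with TopHat2 2.0.9 and Bowtie 1.0.0, bedtools 2.17.0, SAMtools 0.1.19, DESeq and Cufflinks 2.1.1, whose order and settings the sources used here do not give. Per the file headers, the deposited 0 h values are mean observed and expected counts, with log2 ratios and adjusted p-values by the authors. The deposited means are multiples of 0.5, so they were not scaled between groups, and introns with few reads have no value (7 trafficking introns in DMSO and 79 in KH-CB19). Per the file headers, the deposited 2 h values are the authors' normalised group means, a signal with a log2 ratio and an adjusted p-value, given for detained introns only.

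No value per library was used, so no new test was made, and no library total, confidence interval or spread between replicates can be given. The planned count model, replicate block and omission of single replicates could not be run. Scripts (Python 3.11.15, pandas 2.3.3, numpy 2.4.6, matplotlib 3.10.9) selected introns by gene symbol, counted calls at the authors' adjusted p below 0.05, recomputed ratios and were tested on simulated data. The table's starts count from 0 (end minus start equals the GENCODE intron length in 20657 introns), and 1 was added to each. GENCODE M21 is on another build, so introns were matched by gene, strand and a length found once in the gene, and only exon letters of its transcripts are shown. Named introns were those past the threshold at 2 h, the introns of up to 3 genes per role with the smallest adjusted p, the 5 highest and the 5 lowest 0 h ratios past the threshold among introns with at least 50 observed or expected reads (1 per gene), and other introns of the genes that passed. Alternatives were a threshold of 0.01, a minimum mean of 50 reads, 1 intron per gene, narrower gene sets and other pseudocounts.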

Additional observations from a re-analysis of the deposited data

How the results depend on the processing

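At 2 h the number of trafficking introns past the threshold was 4 or 5 under every alternative run, with Sec24b as the single rise. Their share lay below that of all detained introns as reported (8.77% against 9.64%) but above it at a threshold of 0.01 (7.02% against 6.28%) and with a mean of 50 reads or more (14.8% against 13.3%), so no order of these shares is to be read. The share that fell was above, and the share that rose below, that of all detained introns in each of these settings. The settings draw on the same few calls, so no stability is to be read from this. The median log2 ratio of −0.20 became −0.0744 over the 27 introns that averaged 50 reads or more (0.07 over all such detained introns) and −0.27 with 1 intron per gene. That choice took the smallest adjusted p, so it keeps a call wherever a gene has one and says nothing of stability. Without introns lying wholly in a coding exon, an alternative chosen after seeing the data like the omission of Vps72 and Exoc3l, it was −0.22. At 0 h, a threshold of 0.01 left 11 introns below expectation in DMSO (3.01%, against 8.28% overall) and 7 in KH-CB19 (2.39%, against 6.75%). Limited to means of 50 reads or more, DMSO had 29 calls (23 above, 6 below, median log2 ratio 0.66) and KH-CB19 had 15 (11 above, 4 below, median 0.44), in 48 and 29 introns. The share below expectation was then 12.5% in DMSO (19.8% over all such introns) and 13.8% in KH-CB19 (18.6%), nearer to the overall share than without a minimum. The share above expectation was 47.9% in DMSO (45.2% over all such introns) and 37.9% in KH-CB19 (45.3%). With 1 intron per gene there were 75 calls in DMSO, 4 of them below (median 1.28, overall 1.27), and 3 below in KH-CB19 (median 1.34, overall 1.30). Without Sec61, Sec62 and Sec63 genes 7 were below in KH-CB19 (median 0.86). A pseudocount of 10 gave medians of 0.45 in DMSO and 0.47 in KH-CB19, where those reported were 0.72 and 0.80. At 2 h that pseudocount gave log2 ratios of 2.02 for Sec24b, −1.25 for Trappc10, −1.22 for Copa, −1.08 for Sec61a2 and −0.88 for Snx8. The detained share was 42.0% among introns with at least 50 reads (33.7% over the whole table) and 30.8% of genes (34.6%), so the first lies above the overall share where that reported (15.3% against 15.5%) lies below. No median or named log2 ratio changed sign under an alternative. Of 102 alternative values, 74 stayed within 1.5 times a count or share or within 0.05 of a log2 value.

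No paired analysis was possible because the table holds 1 mean per group and no value per replicate. For the same reason, leaving out single replicates, other normalisations and count filters were not run, and the share of any difference that 1 library contributes was not tested. Depth is low for many of the 57 introns, of which 27 averaged 50 reads or more at 2 h.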
